A study of Mus musculus with 27 samples.

Results

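The pancreatic islets of NOD mice that lack Batf3 were compared with those of NOD mice that lack Rag1, at 6 weeks of age. The comparison rests on 6 of the 27 arrays of the study, chosen by genotype and age: 3 Batf3ko mice and 3 Rag1ko mice, each mouse giving 1 islet RNA. All 27 mice were untreated females on the NOD/ShiLt background, which develops autoimmune diabetes, and were kept in a barrier facility. Batf3ko mice carry the genotype NOD.Batf3-/- and Rag1ko mice NOD.Rag1-/-, and NOD mice carry neither deletion. The remaining arrays come from 3 NOD mice at 6 weeks and from 6 mice of each of the 3 genotypes at 8 weeks. They served to estimate the spread between mice and as values set beside the comparison. Levels are deposited log2 values for 19938 genes, so that a difference of 1 is a doubling, and differences are given as Batf3ko minus Rag1ko.

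Batf3 is a transcription factor needed for the dendritic cells that cross-present antigen to CD8 T cells. Rag1 is part of the recombinase that assembles antigen receptor genes, and without it no mature T or B lymphocytes form. The labels give no purpose for setting one knockout against the other. Both genotypes lack a component of the autoimmune response, and Batf3ko mice keep lymphocytes while Rag1ko mice do not.

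The results below turn largely on a pair of gene groups. The circadian clock is a feedback loop in which the activators Clock and Arntl (BMAL1) drive, through E-box sequences, their own repressors of the Per and Cry families. They also drive the nuclear receptors Nr1d1 and Nr1d2 (REV-ERB), which repress Arntl and Nfil3 through ROR elements. The output factors Dbp, Tef and Hlf act on D-boxes and Nfil3 opposes them there, so Arntl and Nfil3 peak at another time of day than Nr1d1 and Dbp. The Reg genes encode small secreted C-type lectins made by pancreatic acinar cells and gut epithelium, and they are known to be induced in the injured or inflamed pancreas. Reg3g and Reg3a belong to its antibacterial Reg3 branch.

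The letters through which the clock factors act were looked for in the RefSeq promoters (GRCm38.p6) of the 8 clock genes that differed, 250 bases before to 50 after each start. Both strands were searched. A gene was counted if any of its listed starts held a match, whereas the share of all promoters counts each start singly. The E-box CACGTG was present in 1 of the 8 genes (Tef), against 7.15% of all 32851 promoters in the table. The D-box TTANGTAA was present in 1 (Per3, with 2 matches), against 2.32%. The ROR element core, TAGGTCA or TGGGTCA, was present in 2 (Arntl and Nfil3), against 6.45%. A match is a description of the letters and not a measured site. Of the 5 windows with a match 4 are shown, because they hold the 3 kinds of clock element in genes of both directions, with the matching letters in capitals. Arntl and Tef have 2 listed starts each, of which 1 is shown; the other Tef window also holds an E-box. They lie at chr7:113207261-113207560 (Arntl, plus strand), chr13:52980990-52981289 (Nfil3, minus strand), chr4:151044616-151044915 (Per3, minus strand) and chr15:81802423-81802722 (Tef, plus strand).
Arntl: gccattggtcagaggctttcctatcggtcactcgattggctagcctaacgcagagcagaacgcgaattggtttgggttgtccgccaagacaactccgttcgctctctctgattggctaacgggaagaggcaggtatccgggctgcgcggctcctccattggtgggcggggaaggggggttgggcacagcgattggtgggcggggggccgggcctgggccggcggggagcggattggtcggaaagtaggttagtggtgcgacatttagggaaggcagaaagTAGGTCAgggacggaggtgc
Nfil3: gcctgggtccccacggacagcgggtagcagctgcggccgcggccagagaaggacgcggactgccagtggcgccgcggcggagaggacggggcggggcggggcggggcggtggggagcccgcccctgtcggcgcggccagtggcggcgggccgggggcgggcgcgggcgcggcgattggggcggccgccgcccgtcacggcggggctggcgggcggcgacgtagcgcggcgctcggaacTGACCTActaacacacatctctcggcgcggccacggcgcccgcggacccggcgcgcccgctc
Per3: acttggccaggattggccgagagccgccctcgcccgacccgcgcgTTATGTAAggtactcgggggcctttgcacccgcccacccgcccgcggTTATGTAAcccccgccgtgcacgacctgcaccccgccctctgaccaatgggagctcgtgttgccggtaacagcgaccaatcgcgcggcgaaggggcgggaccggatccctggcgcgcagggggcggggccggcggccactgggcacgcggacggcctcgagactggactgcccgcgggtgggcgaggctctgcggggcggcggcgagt
Tef: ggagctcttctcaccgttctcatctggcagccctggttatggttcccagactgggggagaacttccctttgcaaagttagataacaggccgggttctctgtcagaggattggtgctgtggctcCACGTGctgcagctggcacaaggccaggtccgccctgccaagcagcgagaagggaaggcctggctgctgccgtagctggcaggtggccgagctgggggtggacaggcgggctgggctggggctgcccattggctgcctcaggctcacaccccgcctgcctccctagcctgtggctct

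Array medians ran from 5.29 to 5.34 at 6 weeks and from 4.92 to 5.05 at 8 weeks, so levels are compared within an age. Rag1ko mouse 1 stood apart from the other 5 mice of the comparison. It had 75 genes more than 1 log2 unit above all 5, where the other mice had 0 to 17, led by the neuropeptide genes Tac1 (6.09 against 2.82 to 3.08) and Grp (6.06 against 3.16 to 3.55) and by the neuronal Stmn2. The mean level of 14 fibroblast and stellate cell markers was 6.04 in this mouse and 5.08 to 5.56 in the others. Rag1ko mice 2 and 3 were the closest pair of replicates at 6 weeks, with an SD of their differences over all genes of 0.185 against 0.238 to 0.318 for the other pairs. Results in which this mouse weighs heavily are given with and without it. Islet markers were high: Ins2 (insulin) lay at 12.76 to 13.22 and Gcg (glucagon) at 13.10 to 13.53 in the 6 mice. Acinar genes were also very high, with Prss2 (trypsinogen) at 12.95 to 13.24 and Cpa1 (carboxypeptidase A1) at 13.38 to 13.63. The markers thus do not show islet cells alone. At 8 weeks Prss2 was lower in every mouse of these genotypes than in any of the 6 mice, with a wider spread, from 7.21 to 11.03. This gap is wider than that between the array medians of the 2 ages. In bulk RNA, fewer cells of a type and less RNA per cell cannot be told apart.

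At 6 weeks 70 of 19938 genes (0.351%) differed between Batf3ko and Rag1ko islets at an adjusted p under 0.05 (limma with Benjamini-Hochberg adjustment over all genes), and are termed called. Of these 35 (0.176%) were higher and 35 (0.176%) were lower in Batf3ko. In each of the 70 every mouse of one genotype lay above every mouse of the other, as in 2335 of all genes (11.7%). The median size of the 70 differences was 0.68, and 22 exceeded 1. Over all genes the median difference was 0.00 and its median standard error (SE) 0.15. Among them the greatest differences were those of Reg3g and Reg3a downwards and of Nr1d1 and Dbp upwards. The call count was 53 without Rag1ko mouse 1, of which 37 were among the 70. It was 39 without Batf3ko mouse 2, 33 without Batf3ko mouse 3, 36 without Rag1ko mouse 2 and 45 with Rag1ko mice 2 and 3 averaged into 1 sample. With only the 6-week arrays in the fit it was 8, and with only the 6 arrays compared it was 2.

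**Figure D1:**
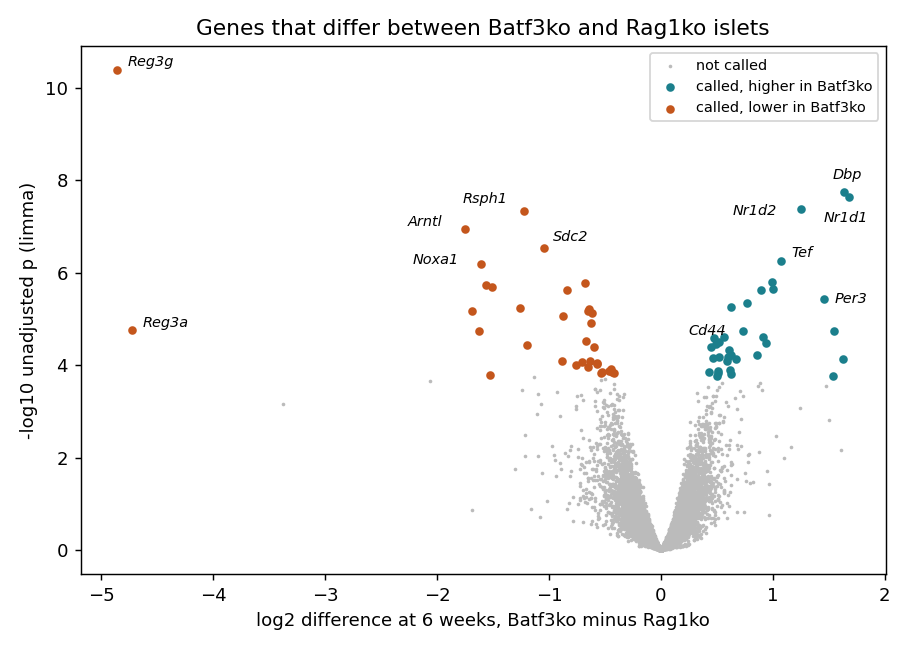
Each point is 1 of 19938 genes, with its log2 difference at 6 weeks (Batf3ko minus Rag1ko, 3 mice each) on the x axis and -log10 of the unadjusted limma p on the y axis; coloured points are the 35 called genes higher and the 35 lower in Batf3ko. Reg3g and Reg3a lie far to the left at -4.86 and -4.73, and the clock genes Nr1d1, Dbp and Per3 lie at the right with 3 small nucleolar RNAs.

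Among the clock genes Nr1d1, Nr1d2, Dbp, Tef, Hlf and Per3 were higher in Batf3ko islets, and Arntl and Nfil3 were lower. Of 15 listed clock genes 14 were measured; 6 were called higher and 2 lower, against the 0.176% of all genes called in each direction. All 14 had an unadjusted p under 0.05, against 6.81% of all genes, and in 13 the mice of the genotypes did not overlap, against 11.7%. The median difference of the 14 was 0.89, against 0.00 over all genes.

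Nr1d1, the REV-ERB alpha receptor that represses Arntl, read 9.70, 9.92 and 9.64 in the Batf3ko mice and 7.88, 7.98 and 8.34 in the Rag1ko mice. Every Batf3ko value lay more than 1 unit above every Rag1ko value. The difference was 1.68 ± 0.21 (SE, n = 3 and 3; limma adjusted p = 0.000152), a 3.21-fold higher level. Its paralogue Nr1d2 read 9.13, 8.63 and 8.63 against 7.34, 7.54 and 7.77, a difference of 1.25 ± 0.17 (limma adjusted p = 0.00018).

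The output factors followed the same order. Dbp, a D-box activator, read 8.04, 7.68 and 7.68 in Batf3ko and 5.81, 6.26 and 6.44 in Rag1ko, a difference of 1.63 ± 0.21 (limma adjusted p = 0.000152). Tef, of the same PAR bZIP family and with the E-box shown above, read 7.36, 6.84 and 6.62 against 5.67, 6.05 and 5.89. It differed by 1.07 ± 0.16 (limma adjusted p = 0.00135). The third member, Hlf, read 6.18, 5.80 and 5.84 against 4.94, 4.82 and 5.31, a difference of 0.91 ± 0.18 (limma adjusted p = 0.0154). The Hlf call was lost without Batf3ko mouse 1, Rag1ko mouse 1 or Rag1ko mouse 2. In each of these genes the lowest Batf3ko mouse was above the highest Rag1ko mouse.

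Per3, a period gene whose promoter holds the D-box letters, read 6.99, 6.38 and 6.37 in Batf3ko and 4.86, 5.30 and 5.20 in Rag1ko. It differed by 1.46 ± 0.25 (limma adjusted p = 0.00437). The other repressors did not pass the test. Ciart, a repressor of the activator complex, differed by 1.50 (adjusted p = 0.181 by limma), Cry2 by 0.87 (0.0716), Per2 by 0.56 (0.16) and Per1 by 0.53 (0.517). Cry1 had a difference of -0.75 (limma adjusted p = 0.118).

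Arntl, the activator, read 4.22, 5.49 and 5.49 in Batf3ko and 6.90, 6.78 and 6.76 in Rag1ko. The Rag1ko mice were tightly grouped, while Batf3ko mouse 1 lay well below its 2 group mates. Those 2 mice hold exactly equal deposited values for Arntl, Dbp and Nr1d2, as for 1992 of the 30177 probe sets. The difference was -1.75 ± 0.24 (limma adjusted p = 0.000379) and -1.32 without Batf3ko mouse 1. Nfil3, the D-box repressor, was likewise lowest in Batf3ko mouse 1, at 5.47, 6.54 and 6.52 against 7.68, 7.58 and 7.80. Its difference was -1.51 ± 0.25 (limma adjusted p = 0.003), and -1.16 without Batf3ko mouse 1. Clock, the partner of Arntl, had a difference of -0.43 and did not pass (limma adjusted p = 0.173). The SEs and p-values of the clock genes rest on the spread over all 27 arrays. With only the 6-week arrays in the fit Arntl, Nfil3, Tef and Hlf lost their calls, while Nr1d1, Nr1d2, Dbp and Per3 kept them. With only the 6 arrays compared none of the 8 clock genes was called.

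The NOD mice share their arrays' scale with both knockouts and are set beside them as levels. Nr1d1 read 10.02, 10.15 and 10.14 in NOD and Arntl 5.08, 4.65 and 5.03, closer to Batf3ko than to Rag1ko. Nfil3 read 7.51, 7.94 and 7.77 in NOD, close to Rag1ko. Batf3ko minus NOD was -0.35 for Nr1d1 (limma adjusted p = 0.553) and -1.56 for Nfil3 (limma adjusted p = 0.000834). Rag1ko minus NOD was -2.04 for Nr1d1 and -0.05 for Nfil3. In these comparisons, which use the same Batf3ko and Rag1ko arrays, 194 genes (0.973%) were called for Batf3ko minus NOD and 772 (3.87%) for Rag1ko minus NOD. The labels do not state the hour at which islets were taken, and its part in the clock differences was not tested.

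**Figure D2:**
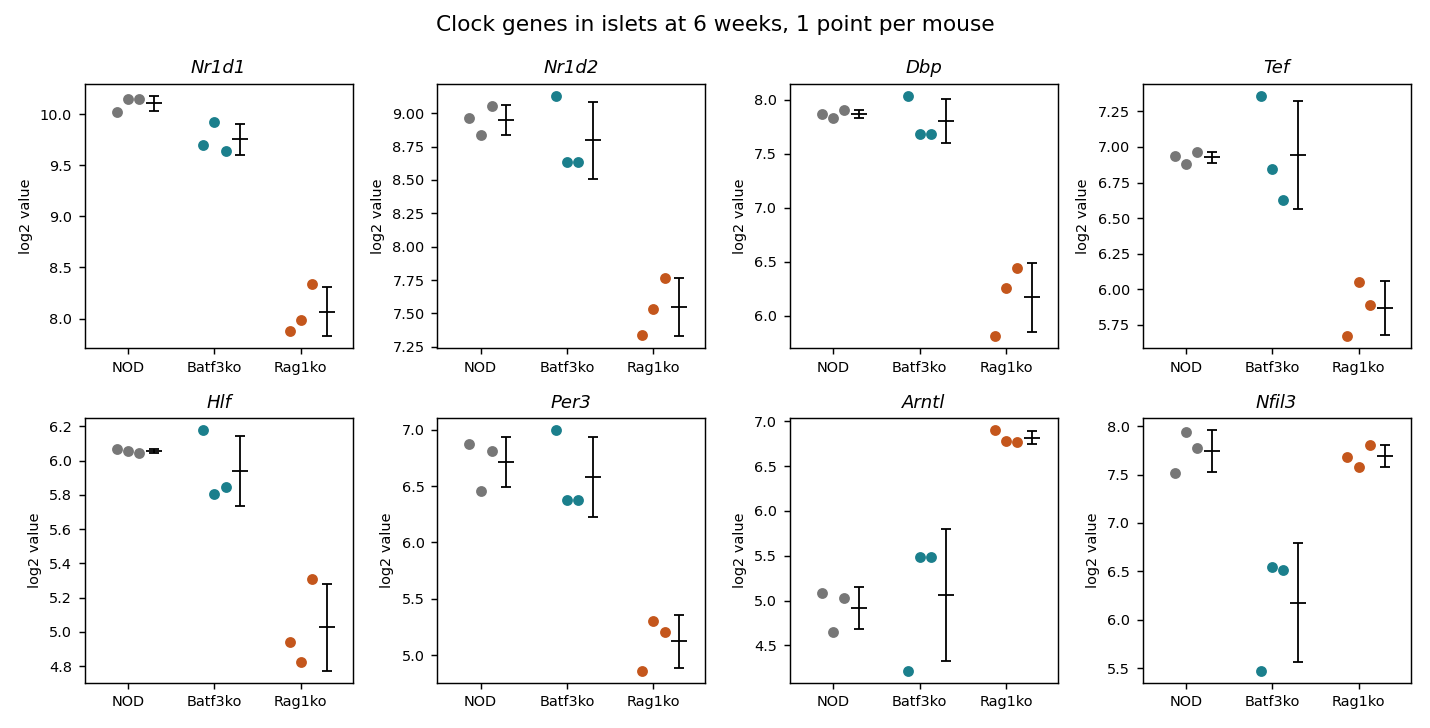
Levels (deposited log2 values, y axis, a separate scale in each panel) of the 8 called clock genes in NOD, Batf3ko and Rag1ko islets at 6 weeks, 1 point per mouse in the order of the mouse numbers, with the mean and SD of 3 mice as a bar to the right. Batf3ko lies above Rag1ko in the first 6 genes and below it in Arntl and Nfil3, and Batf3ko mouse 1 is the lowest of its group in both.

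Other called genes higher in Batf3ko were not clock factors in the list. Bhlhe41 (DEC2), a basic helix-loop-helix repressor that also acts on E-boxes, was higher by 0.86 ± 0.18 (limma adjusted p = 0.0277). Sstr3, a somatostatin receptor, read 8.00, 8.22 and 8.21 against 7.22, 7.42 and 7.50, a difference of 0.77 ± 0.13 (limma adjusted p = 0.00485). Mreg (melanoregulin) was higher by 0.90 ± 0.15, Ifrd1, a transcriptional co-regulator, by 0.94 ± 0.19, and Adh1, an alcohol dehydrogenase, by 0.67 ± 0.14. Hypk, a chaperone-associated protein, was higher by 0.63 ± 0.11. All of these were called, and none of them was called at 8 weeks. Leaving out single mice ended the calls of Bhlhe41 (in 4 of the 6 omissions), Adh1 (4) and Ifrd1 (3), and not those of Sstr3, Mreg and Hypk.

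Several small structured RNAs were among the genes called higher in Batf3ko. Rpph1, the RNA of ribonuclease P, read 10.99, 11.44 and 11.04 against 10.20, 10.33 and 9.92, a difference of 1.01 ± 0.17 (limma adjusted p = 0.003). Scarna17, a guide RNA of Cajal bodies, read 9.18, 9.45 and 9.37 against 8.40, 8.47 and 8.16, a difference of 0.99 ± 0.16. Of 53 small nucleolar RNAs, which guide modification of ribosomal RNA, 4 were called higher (7.55%, against 0.176% of all genes) and 0 lower: Snord57 (1.63), Snord82 (1.55), Snord49b (1.54) and Snord14e (0.62). The median of the 53 was 0.10 and 24 of them were negative. This family was chosen after its values were seen. Snord57 and Snord82 lost their calls without Batf3ko mouse 2, Batf3ko mouse 3 or Rag1ko mouse 3, Snord14e in 4 of the 6 omissions and Snord49b in 5.

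Reg3g and Reg3a were the most different genes of the comparison, both far lower in Batf3ko than in Rag1ko. Reg3g read 4.92, 6.52 and 4.65 in the Batf3ko mice and 11.05, 9.72 and 9.89 in the Rag1ko mice. The groups were more than 3 units apart at their nearest mice. The difference was -4.86 ± 0.45 (limma adjusted p = 8.12e-07), a 29.0-fold higher level in Rag1ko, and -4.44 without Rag1ko mouse 1. NOD mice read 5.26, 6.03 and 5.55, near Batf3ko.

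Reg3a read 7.23, 9.73 and 5.47 in Batf3ko and 12.43, 12.24 and 11.94 in Rag1ko. The Batf3ko mice spanned more than 4 units, and all 3 lay below the Rag1ko mice. The difference was -4.73 ± 0.90 (limma adjusted p = 0.0122). The call was lost without Batf3ko mouse 1 (adjusted p = 0.0513), without Batf3ko mouse 3 (0.143), without Rag1ko mouse 1 (0.052) and without Rag1ko mouse 2 (0.0522, all by limma). NOD mice read 9.91, 9.87 and 9.84, between the knockouts.

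All 7 listed Reg genes were measured, of which 2 were called lower and 0 higher, against 0.176% of all genes in each direction, with a median of -1.68. Reg3b, the third antibacterial member, read 9.29, 11.30 and 8.19 in Batf3ko against 13.06, 12.94 and 12.91. It did not overlap between genotypes, but its difference of -3.37 ± 0.88 did not pass (limma adjusted p = 0.112). Reg2 had a difference of -1.68 ± 1.09 and Reg3d of -1.01 ± 0.57, neither called. Reg1 lay at 13.07 to 13.30 in all 6 mice, close to the highest value of the whole table, 13.85, and Reg4 at 3.33 to 3.41. In Reg3g, Reg3a, Reg3b, Reg2 and Reg3d, Batf3ko mouse 2 was the highest and mouse 3 the lowest of the 3 Batf3ko mice.

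Reg genes are acinar products, and the levels of the acinar list stand beside them. Of 27 measured acinar genes 0 were called, against 0.351% of all genes, with a median difference of 0.15 (0.23 without Rag1ko mouse 1). Of the 27, 22 were positive and 8 did not overlap between genotypes, against 11.7% of all genes. Their mean level was 11.84 to 12.12 in Batf3ko and 11.80 to 12.20 in Rag1ko. Prss2 and Cpa1 lay close to the highest value of the whole table, 13.85. The SE of these genes takes in their wide spread at 8 weeks: Prss2 differed by 0.19 with an SE of 0.72, although its 6-week SDs were 0.04 and 0.08. The part of acinar RNA in the Reg difference was not tested.

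**Figure D3:**
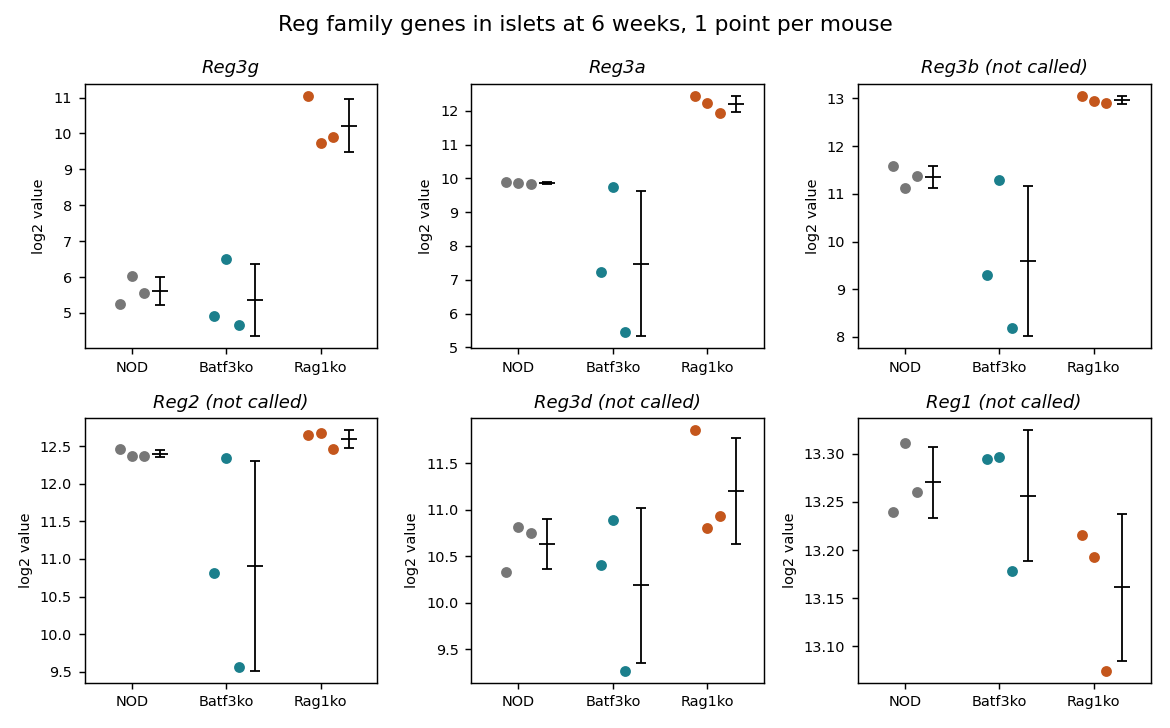
Levels (deposited log2 values, y axis, a separate scale in each panel) of 6 Reg genes in NOD, Batf3ko and Rag1ko islets at 6 weeks, 1 point per mouse with the mean and SD of 3 mice to the right. Rag1ko lies above both other genotypes in Reg3g, Reg3a and Reg3b, and the Batf3ko mice scatter over several units in Reg3a, Reg3b and Reg2. The Reg1 panel spans less than 0.3 units, close to the highest value of all arrays.

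In 5 further genes called lower in Batf3ko, Rag1ko mouse 1 had the highest level. Noxa1, an activator subunit of an NADPH oxidase, read 4.67, 4.87 and 4.83 in Batf3ko and 7.45, 5.94 and 5.80 in Rag1ko. Tmc5, a transmembrane channel-like protein, read 4.51, 4.55 and 3.96 against 7.01, 5.20 and 5.51. Lgals9 (galectin-9), a lectin that acts on leukocytes, read 7.34, 7.80 and 6.89 against 10.05, 8.49 and 8.36. F2 (prothrombin) read 4.64, 5.22 and 4.24 against 7.26, 5.87 and 6.02, and Itln1, an intelectin, read 5.29, 5.43 and 5.06 against 7.38, 5.81 and 6.37. In each of these 5 genes Rag1ko mouse 1 was more than 1 unit above its group mates, while both of those were still above all Batf3ko mice.

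The difference of Noxa1 was -1.61 ± 0.25 and -1.08 without Rag1ko mouse 1 (limma adjusted p = 0.00144 and 0.00184). Tmc5 went from -1.56 to -1.01 and Itln1 from -1.26 to -0.83 without this mouse, and both were still called. Lgals9 went from -1.62 to -1.08 (limma adjusted p = 0.0742) and F2 from -1.69 to -1.25 (limma adjusted p = 0.0552), so their calls were lost. Itln1, F2 and Lgals9 also lost their calls without Batf3ko mouse 3. In the complement gene C4b Rag1ko mouse 1 was also the highest, at 5.10, 6.02 and 4.93 against 8.50, 6.84 and 6.89, with a difference of -2.06 that did not pass (limma adjusted p = 0.0586) and was -1.52 without this mouse.

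A further set of called genes lower in Batf3ko encode mitochondrial proteins, all with differences under 1 unit and chosen here after their values were seen. Ndufab1 and Ndufs5, subunits of respiratory complex I, had differences of -0.68 and -0.70. Cox5a, a subunit of cytochrome c oxidase, had -0.65, Slc25a5, an ADP/ATP carrier, -0.61, and Cisd1, an iron-sulfur protein of the outer membrane, -0.62. Of 43 measured Nduf genes 2 were called lower (4.65%, against 0.176% of all genes) and the median was -0.04; of 77 mitochondrial ribosomal proteins 1 was called higher (Mrps18c) and 1 lower (Mrps28), with a median of -0.12. None of 54 cytosolic ribosomal protein genes was called, against 0.351% of all genes. Leaving out single mice ended the calls of Ndufs5 and Cox5a in 4 of the 6 omissions each, of Mrps18c in 5, of Slc25a5 in 2 and of Cisd1 and Mrps28 in 1 each, and not that of Ndufab1.

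Of the 70 genes 14 were also called at 8 weeks. The means at the 2 ages come from different mice, while the spread was estimated over all 27 arrays for both. These are 20% of the 6-week calls and 13.9% of the 101 genes (0.507%) called at 8 weeks, and all 14 kept their sign. They comprised 6 clock genes (Nr1d1, Nr1d2, Dbp, Tef, Hlf and Per3), Cd44, Susd1, Rsph1, Slc37a1, Sdc2, Dennd4a, Ccdc141 and Rhobtb1. Over all 70, the median size of the difference was 0.68 at 6 weeks and 0.13 at 8 weeks. The sign was the same at both ages in 44 of the 70, against 50.2% of all genes.

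Rsph1, a radial spoke protein of motile cilia, read 6.14, 6.63 and 6.66 in Batf3ko and 7.41, 7.93 and 7.76 in Rag1ko at 6 weeks. The difference was -1.22 ± 0.16 (limma adjusted p = 0.00018). At 8 weeks the Batf3ko mice spanned 5.85 to 6.30 (median 6.09) and the Rag1ko mice 7.64 to 8.20 (median 8.01), a difference of -1.88 ± 0.11 (limma adjusted p = 4.26e-11). NOD mice lay at 6.13 to 6.51 at 6 weeks, with Batf3ko.

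Slc37a1, a phosphate-linked sugar transporter, lies next to Rsph1 on chromosome 17. It read 8.90, 9.05 and 9.04 against 9.61, 10.03 and 9.96, a difference of -0.87 ± 0.16, and -0.99 ± 0.11 at 8 weeks. Sdc2, the heparan sulfate proteoglycan syndecan-2, read 5.77, 5.90 and 5.97 against 6.70, 7.07 and 7.02. Its difference was -1.05 ± 0.15 (limma adjusted p = 0.000825) and -1.15 ± 0.11 at 8 weeks. Dennd4a, a Rab guanine nucleotide exchange factor, read 5.87, 6.24 and 6.15 against 7.55, 7.67 and 7.63, a difference of -1.53 ± 0.35 (limma adjusted p = 0.0464), and -1.26 ± 0.25 at 8 weeks. Its call at 6 weeks was lost in 13 of the 18 alternative settings, each of the 6 single-mouse omissions among them. The difference itself stayed between -1.61 and -1.42 in all 18. Dennd4a was also 1 of the 2 genes called with only the 6 arrays compared in the fit. Ccdc141 differed by -1.19 and -0.99 at the 2 ages, and Rhobtb1 by -0.88 and -0.59. Leaving out single mice also ended the 6-week calls of Slc37a1 (without Rag1ko mouse 2), Ccdc141 (in 3 of the 6 omissions) and Rhobtb1 (in 4). It did not end those of Rsph1 and Sdc2.

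In the other direction Cd44, a hyaluronan receptor of activated leukocytes and epithelia, read 6.91, 6.69 and 6.64 in Batf3ko and 6.03, 6.02 and 5.99 in Rag1ko. The difference was 0.73 ± 0.14 (limma adjusted p = 0.0122) and 0.70 ± 0.10 at 8 weeks (limma adjusted p = 0.000383). It was the only called gene among 12 measured leukocyte adhesion and homing genes, whose median difference was 0.10 (0.04 without Rag1ko mouse 1). The call at 6 weeks was lost without Batf3ko mouse 1, Rag1ko mouse 2 or Rag1ko mouse 3.

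Cd44 lies on chromosome 2, 9 tested genes from Rag1. Among the 200 tested genes within 100 places of Rag1, 1 was called higher (Cd44) and 1 lower (F2, 42 places away), against 0.351% of all genes called. Of the 135 tested genes near Batf3 on chromosome 1, 0 were called at 6 weeks, and Mia3 and Cd46 were called lower at 8 weeks. The Batf3 probe set read 5.08, 4.86 and 4.80 in Batf3ko and 4.74, 4.91 and 4.90 in Rag1ko. The Rag1 probe set read 3.33, 3.00 and 3.28 in Batf3ko and 3.34, 4.26 and 3.70 in Rag1ko. Neither was called at 6 weeks, although Rag1 passed without Rag1ko mouse 1 (-0.78, limma adjusted p = 0.0348). At 8 weeks Rag1 differed by -0.66 (limma adjusted p = 0.0063). Since the labels do not place the deleted parts, neither checks the genotype.

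**Figure D4:**
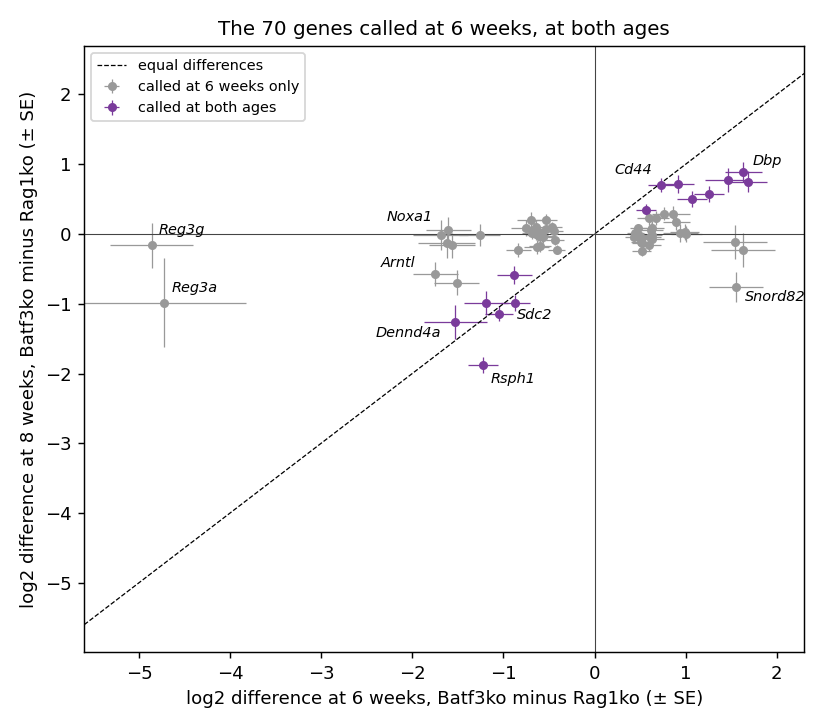
Each point is 1 of the 70 genes called at 6 weeks, with its log2 difference at 6 weeks on the x axis and at 8 weeks on the y axis (Batf3ko minus Rag1ko, bars are ± SE); purple points are the 14 genes called at both ages and the dashed line marks equal differences. Rsph1, Sdc2, Dennd4a and Cd44 lie near the line or beyond it, the clock genes lie between the line and 0, and Reg3g lies at an 8-week difference of -0.16.

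The difference between genotypes changed with age in 5 genes (0.0251%) by the test of that change itself. Age and the normalization of the arrays cannot be told apart in it. The acinar gene Prss2 also lay lower at 8 weeks than at 6 weeks in both genotypes, and the part of acinar RNA in these changes was not tested. Reg3g had an 8-week difference of -0.16 ± 0.32, as it was low in all 12 mice of the 2 genotypes at 8 weeks, at 2.46 to 2.91 in Batf3ko and 2.23 to 4.58 in Rag1ko. These levels lay below the 8-week array medians of 4.92 to 5.05, where a lower level in 1 genotype has little room to show. The Reg3g difference moved by 4.70 ± 0.56 (limma adjusted p = 0.000107). Noxa1 moved by 1.67 ± 0.30, from -1.61 to 0.06 (limma adjusted p = 0.0336). Snord82 moved by -2.31 ± 0.36, Ppme1, a protein phosphatase methylesterase, by -0.76 ± 0.13, and Snu13, a U4 small nuclear RNA binding protein, by 0.70 ± 0.12. The count of 5 became 1 without Batf3ko mouse 2, 9 without Rag1ko mouse 1 and 8 without Rag1ko mouse 2 or 3. Among the 8 clock genes the change with age did not pass in any; it was -0.93 ± 0.26 for Nr1d1 (limma adjusted p = 0.237) and 1.18 ± 0.30 for Arntl (limma adjusted p = 0.148). At 8 weeks 6 clock genes were called higher and 0 lower, and Arntl had a difference of -0.57 (limma adjusted p = 0.155).

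No gene of the lymphocyte and dendritic cell lists was called between the knockouts at 6 weeks. Of 36 gene lists 33 held no called gene, and the medians of these 33 lay between -0.21 and 0.30 (-0.24 and 0.44 without Rag1ko mouse 1). The members of the 33 lists sum to 465, and 0.351% of all genes were called. At that share a short list would seldom hold a call, so 0 called does not show that the genotypes are alike. Among 20 T cell genes the median was 0.03 and 0 were called; their mean level was 3.97 to 4.0 in Batf3ko, 3.95 to 4.04 in Rag1ko and 4.19 to 4.28 in NOD. Cd3e, a chain of the T cell receptor complex, read 4.57, 4.93 and 4.43 in Batf3ko and 4.84, 4.82 and 4.77 in Rag1ko, where no T cells form, against 5.34, 5.49 and 5.59 in NOD. The difference of Cd3e was -0.16, with a 95% interval from -0.89 to 0.56.

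Among 19 B cell genes the median was 0.01 and 0 were called. Ms4a1 (CD20) read 3.09, 3.04 and 2.76 in Batf3ko against 3.21, 3.25 and 2.47, and its interval ran from -0.99 to 0.96. For 14 genes of the Batf3-dependent dendritic cell the median was -0.01 with 0 called. Its chemokine receptor Xcr1 read 4.17, 3.94 and 4.22 against 3.96, 3.94 and 3.66, and Clec9a, its receptor for dead cells, 3.52, 2.99 and 3.13 against 3.09, 3.20 and 3.08. Both genes overlapped between genotypes. The 21 macrophage genes had a median of 0.03, and Csf1r, the macrophage growth factor receptor, differed by 0.04 with an interval from -0.40 to 0.49.

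The interferon, chemokine, cytokine, complement and MHC lists likewise held no called gene between the knockouts, where 0.351% of all genes were called. Called genes outside these lists, such as Reg3g, Lgals9 and Cd44, are given above. Cxcl9, an interferon-gamma induced chemokine for T cells, read 4.37, 4.62 and 3.68 in Batf3ko, 4.85, 4.86 and 3.88 in Rag1ko and 8.70, 8.46 and 9.13 in NOD. Both knockouts lay some 4 units below NOD and overlapped with each other. Of 15 interferon-gamma response genes 7 were called lower in Batf3ko than in NOD and 7 in Rag1ko than in NOD. Over all genes 0.973% and 3.87% were called in these comparisons, in either direction. The medians of the 15 genes were -1.16 and -1.03, and -0.09 between the knockouts (-0.04 without Rag1ko mouse 1). The 10 MHC class II genes had a median of -0.18 between the knockouts (-0.22 without Rag1ko mouse 1). H2-Aa, a class II chain, had a difference of -0.49 ± 0.30, and of -0.297 without this mouse.

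The 21 type I interferon genes had the lowest median of these lists, -0.21, with 0 called and 2 positive. Oas2, an antiviral oligoadenylate synthetase, read 5.16, 4.61 and 4.85 in Batf3ko and 6.75, 5.91 and 5.69 in Rag1ko, and did not pass (-1.24 ± 0.30, limma adjusted p = 0.0771). Bst2 (tetherin) had a difference of -1.11 and Ifi27l2a of -1.31, neither called. Without Rag1ko mouse 1 these 3 differences were -0.93, -0.77 and -0.85. The mean level of the list was 4.99 to 5.08 in Batf3ko, 5.27 to 5.54 in Rag1ko and 5.29 to 5.52 in NOD, with Rag1ko mouse 1 the highest of its group.

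No gene of the beta cell list or the list of other endocrine cells was called between the knockouts, against 0.351% of all genes. Of 21 beta cell genes 0 were called, and the median was 0.12 with Rag1ko mouse 1 and -0.01 without it. Ins2 read 13.09, 13.13 and 13.22 in Batf3ko and 12.78, 12.92 and 12.76 in Rag1ko, without overlap, and its difference of 0.33 ± 0.08 did not pass (limma adjusted p = 0.0832). Gcg had a difference of 0.26 (limma adjusted p = 0.252). The 17 genes of ER stress had a median of -0.01.

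The glucocorticoid-inducible genes, which respond to adrenal hormones that follow a daily rhythm, had the highest of these medians, 0.30 over 12 genes with 11 positive and 0 called (0.44 without Rag1ko mouse 1). Fkbp5, a co-chaperone of the glucocorticoid receptor, read 7.43, 7.32 and 7.45 in Batf3ko and 6.43, 6.43 and 6.69 in Rag1ko. The groups did not overlap, and the difference of 0.88 ± 0.21 did not pass (limma adjusted p = 0.0624). The 13 immediate early genes, which respond to the isolation of cells, had a median of 0.27 (0.41 without Rag1ko mouse 1), with a mean level of 7.39 to 8.28 in Batf3ko, 7.25 to 7.80 in Rag1ko and 9.26 to 9.33 in NOD. Of the 13 genes 11 were called lower in each knockout than in NOD. Over all genes 0.973% (Batf3ko) and 3.87% (Rag1ko) were called against NOD in either direction.

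**Figure D5:**
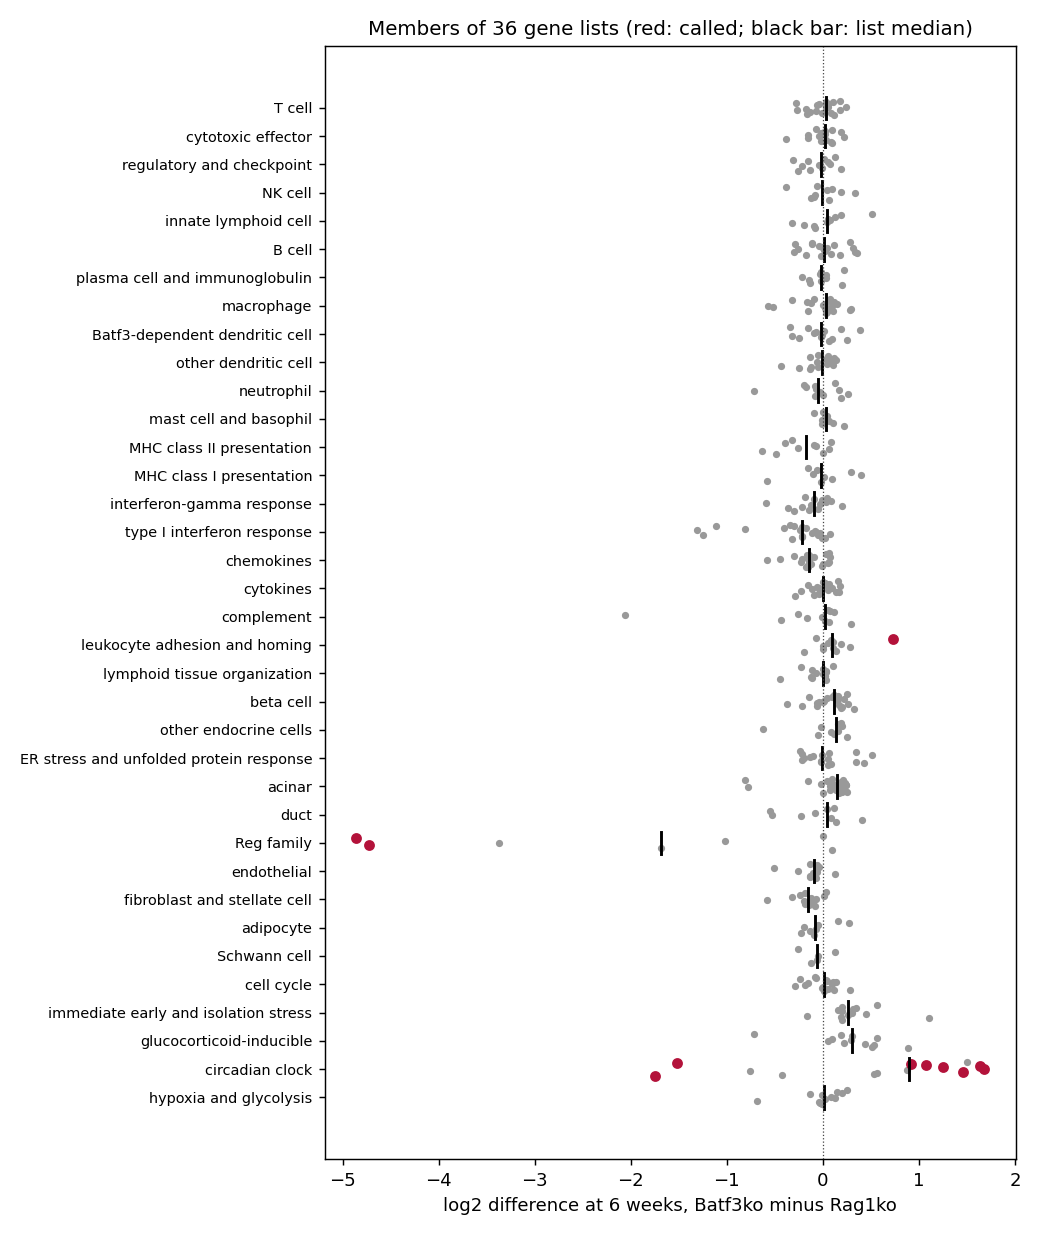
Each point is 1 measured gene of the 36 gene lists (rows), placed at its log2 difference at 6 weeks (Batf3ko minus Rag1ko) on the x axis; red points are called genes and the black bar is the median of the list. Red points occur in the circadian clock (8), the Reg family (2) and leukocyte adhesion and homing (Cd44), and the medians of the other lists lie between -0.21 and 0.30.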

How the data were processed

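Islet RNA of 27 mice was measured on Mouse Gene 1.0 ST arrays from Affymetrix. The authors made the deposited log2 values with RMA in Arraystar, per the series text; the submitters' processing notes also name Affymetrix Expression Console and mm9 without a role, with no version. No normalization was added. Of 30177 probe sets, 21789 name 1 symbol, 1621 several and 6767 none; the first kind was used, with the highest-mean probe set for each of 999 genes with several. Symbols and gene order came from the RefSeq annotation of GRCm38.p6. limma 3.58.1 in R 4.3.3 fitted 1 mean per genotype and age over all 27 arrays (21 residual degrees of freedom), with Benjamini-Hochberg adjustment at 0.05; the fit was tested on simulated data. The number of arrays limits the precision. The p-values weigh a difference against the spread between mice within groups, pooled over the groups of both ages.

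Named genes are the 15 highest and 15 lowest called genes without overlap (without Gm and Rik models, small RNA families and antigen receptor segments), called neighbours, called list members and up to 4 others of a list, and typical markers. Other named genes were chosen after their values were seen. The members, lists and rules were chosen with earlier results of these data known. Mice share replicate numbers across genotypes, which are not stated to pair them. Alternatives covered the arrays in the fit, filters, probe set choice, normalization, variance moderation, array weights, replicate number and single mice.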

Additional observations from a re-analysis of the deposited data

Results flagged for a closer look

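The genotype difference changed between 6 and 8 weeks in 5 genes by the interaction test of limma (adjusted p under 0.05), and each is given as the 8-week minus the 6-week difference. The values were 4.698 for Reg3g, 1.669 for Noxa1, 0.6956 for Snu13, -0.757 for Ppme1 and -2.308 for Snord82. The differences of Reg3g and Noxa1 were negative at 6 weeks and near 0 at 8 weeks, where Reg3g was low in both genotypes. Snord82 and Ppme1 were higher in Batf3ko at 6 weeks and not called at 8. Snu13 had a difference of -0.39 at 6 weeks (limma adjusted p = 0.0867) and 0.31 at 8 weeks (limma adjusted p = 0.0338). Age and the normalization of the arrays cannot be told apart. The part of acinar RNA, which also differed between the ages by the level of Prss2, was not tested.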

How the results depend on the processing

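At 6 weeks 70 genes were called. The count was 8 with only the 6-week arrays in the fit (7 shared with the 70), 2 with only the 6 arrays compared, 448 with array weights and 45 with the replicate number as a block; leaving out single mice gave 33 to 53. With every probe set tested 117 probe sets were called, of which 70 are the probe sets kept for a gene (68 among the 70 calls). Averaging Rag1ko mice 2 and 3, an alternative added after seeing the data, gave 45, of which 41 were among the 70. The numbers are not stated to pair the mice. Deviations of same-numbered mice correlated at 0.09, -0.191 and 0.249, and those of differently numbered mice at -0.345 to 0.26. With 3 mice a group these values cannot decide whether the numbers pair them. At 8 weeks 101 genes were called, and 52 with the 8-week arrays only, 46 with the 2 groups only and 61 with the replicate block. The 5 genes whose difference changed with age became 24 without dim genes, 43 with an intensity trend, 108 with array weights and 2 with the replicate block, and 1 to 9 without single mice; 48 probe sets passed when every probe set was tested. None of the 70 genes was called in all 18 settings. Dbp, Nr1d1, Nr1d2, Per3, Reg3g, Scarna17 and Sdc2 were called in 17, losing the call with only the 6 arrays compared, where 0 clock genes and 0 Reg genes were called. Zmpste24 reversed to -0.29 with its probe set of highest variance. The 6-week and 8-week counts were lowest where only the arrays of the 2 groups estimated the spread.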

Other observations

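Between pairs of 6-week arrays 1404 to 2457 of the 30177 probe sets held exactly equal values (median 1933.5 over 36 pairs), against 0 to 32 between 8-week arrays and 0 to 3 between arrays of different ages. Batf3ko mice 2 and 3 held equal values for the clock genes Nr1d2, Dbp and Arntl.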
